A study of Mus musculus with 4 samples.

Results

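Map2, Map1a, Map1b and Mapt encode the classical neuronal microtubule-associated proteins, and all of their peaks were taken from a mouse cortex table of RNA bound by an anti-m6A antibody. Every row of the table that carried 1 of these 4 gene symbols was kept, which gave 52 of 33977 peaks. Of these, 17 belonged to Map1a, 17 to Map1b, 11 to Map2 and 7 to Mapt. The libraries came from methylated RNA immunoprecipitation, in which fragments carrying N6-methyladenosine (m6A) are pulled down and sequenced. The groups were sham (2 libraries) and rmTBI, repetitive mild traumatic brain injury (2 libraries), and each library was labelled as total RNA of cortex precipitated with the same antibody. A number, 0 or 1, tells apart the libraries of a group, and its meaning is left unsaid in the labels. Whether libraries 0 and 1 are replicates, or 1 of them is RNA taken before the antibody step, cannot be told apart from the labels, although they name the antibody for all 4. In the latter case a group mean, its error and its p-value would mix different kinds of library, and the values within each number would be the ones of 1 kind. The sources used here do not give the strain, sex or age of the mice, how and when they were injured, or whether a library is 1 animal or a pool. The p-values below therefore measure only how far these libraries spread, which may be technical.

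Microtubule-associated proteins bind along microtubules and stabilise and space them in neurites. MAP2 is the classical marker of neuronal cell bodies and dendrites, MAP1A is abundant in mature neurons, and MAP1B is best known from growing axons and the developing brain. Tau, the product of Mapt, is mainly axonal, and its phosphorylated, aggregated form is a hallmark of several dementias and of chronic traumatic encephalopathy. m6A is placed on messenger RNA by the METTL3 and METTL14 complex, often near stop codons and in long internal exons, and is read by proteins that influence the decay, transport and translation of the RNA.

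Overlapping rows of 1 gene on 1 strand were joined into a region, which is described by its longest row and numbered from the 5′ end of the gene. The 52 rows formed 34 regions: 9 in Map2, 10 in Map1a, 11 in Map1b and 4 in Mapt. The table assigned 28 rows to coding sequence, 18 to 3′ untranslated sequence and 6 to 5′ untranslated sequence. Mapt differed in layout, with 6 of its 7 rows in the 3′ untranslated class, against 1 of 11 for Map2, 4 of 17 for Map1a and 7 of 17 for Map1b. Positions are read as GRCm38, because all 52 rows lay inside the RefSeq GRCm38.p6 spans of their genes, although the submitters' processing notes name GRCm39. The spans are chr1:66175202-66442583 for Map2, chr2:121289590-121310832 for Map1a, chr13:99421464-99516602 for Map1b and chr11:104229409-104332090 for Mapt. Map1b is on the minus strand and the others are on the plus strand.

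Of Map1a, Map1b and Map2, which had a RefSeq promoter window, only Map1b had a peak in it, the 5′ untranslated region 1 at chr13:99516511-99516602, and it is shown because its bases could be read. The peak ended at the annotated gene start and shared 50 bases with that window. The sense strand was searched for the usual m6A motif, which is A, G or T, then A or G, then AC, then A, C or T; no other motif was searched. There was 1 match, AGACA at chr13:99516578-99516582. It is in capitals in this 30-base stretch of the minus strand, chr13:99516565-99516594 in GRCm38.p6, from RefSeq.
Map1b 5′ peak: ggggcggagcggAGACAgcaccttcggaga
The same motif was in 17871 of 32851 (54.4%) of the matching 50-base stretches at the starts of all genes, so its presence there is common. The match describes the letters and does not locate a methylated base.

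The 2 libraries numbered 0 held 14437317 (sham) and 13753600 (rmTBI) counts over all rows, and the 2 numbered 1 held 26356562 and 26888072. Levels are in CPM, counts scaled to library size with TMM factors, over all peak rows for a region and over all gene sums for a gene. Every member row passed the filter on low counts, the lowest having 77 counts in rmTBI library 0. Markers of some other cells and regions, though not of all, differed between the groups. All 8 thalamus markers with a peak, of 9 listed, were lower in rmTBI, with a median log2 difference of -2.56 and 4 of 8 called. Their summed level was 1186 and 1412 CPM in sham against 232 and 289 CPM in rmTBI. The oligodendrocyte and myelin markers were lower in 7 of 7 (8 listed, median -0.80, none called), with sums of 1498 and 1442 CPM in sham and 1017 and 945 CPM in rmTBI. The neuronal markers were higher in 4 of 7 (8 listed, median 0.10, none called), with sums of 7086 and 6944 CPM in sham and 6705 and 6016 CPM in rmTBI. Among them Slc17a7, the vesicular glutamate transporter of cortical excitatory neurons, had a log2 difference of 0.49, and Nefm, a neurofilament subunit of large axons, had one of -0.60. The neuronal median ran from -0.13 to 0.28 when each library was left out in turn. Such a fit leaves 1 group with a single library number, so these ranges, here and below, mix group and number. Astrocyte markers had a median of -0.02 (2 of 4 higher), microglial markers 0.29 (5 of 6 higher) and vascular markers -0.03 (1 of 3 higher). Without 1 library these medians ran from 0.07 to 0.13, from 0.10 to 0.54 and from -0.23 to 0.39. Their summed levels were 2045 and 2131 CPM in sham against 2219 and 2317 CPM in rmTBI for astrocytes, 73.9 and 90.7 against 92.9 and 103 CPM for microglia, and 77.2 and 109 against 81.3 and 103 CPM for vascular cells. None of the 3 blood markers had a peak row. The part of these differences in the results below was not tested.

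Of the 4 genes, Map2 had the largest difference between the groups. Its summed regions stood at 3774 and 3495 CPM in sham libraries 0 and 1 and at 4598 and 4197 CPM in rmTBI libraries 0 and 1. Both rmTBI libraries were above both sham libraries, a pattern seen in 12.5% of the 10214 genes tested. The fitted log2 difference was 0.27 (SE 0.15), a fold of 1.21. In this fit, which leaves the library number out, it was not called (unadjusted p of 0.105, adjusted p = 1.00 by edgeR's quasi-likelihood test with Benjamini-Hochberg adjustment). The log2 difference was 0.28 between the libraries numbered 0 and 0.26 between those numbered 1, and 32.8% of all genes were higher within both numbers. It ran from 0.19 to 0.34 when each library was left out in turn. Counts from antibody-bound RNA do not separate a change in methylation from a change in RNA abundance, and in a bulk tissue fewer cells of a type and less RNA per cell cannot be told apart.

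The other 3 genes differed less between the groups. Map1a stood at 9020 and 11083 CPM in sham and at 8395 and 10189 CPM in rmTBI, with a log2 difference of -0.11 (SE 0.17). Map1b stood at 10563 and 12017 CPM in sham and at 10432 and 11235 CPM in rmTBI, with a log2 difference of -0.06 (SE 0.14). For both genes the groups overlapped, since library 1 lay above library 0 in each group. Mapt stood at 327 and 262 CPM in sham and at 321 and 260 CPM in rmTBI, with a log2 difference of -0.02 (SE 0.20), and here library 1 lay below library 0. All 3 genes were lower in rmTBI within both numbers, as were 28.7% of all genes. Unadjusted p was 0.529 for Map1a, 0.689 for Map1b and 0.938 for Mapt in the same edgeR fit. The fitted sign of all 3 turned when a library was left out. Ranges were -0.26 to 0.04 for Map1a, -0.15 to 0.04 for Map1b and -0.20 to 0.15 for Mapt. As these fits leave 1 group with a single library number, their ranges mix group and number. Over all genes 13 of 10214 (0.127%) were called, and none was a member.

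**Figure D1:**
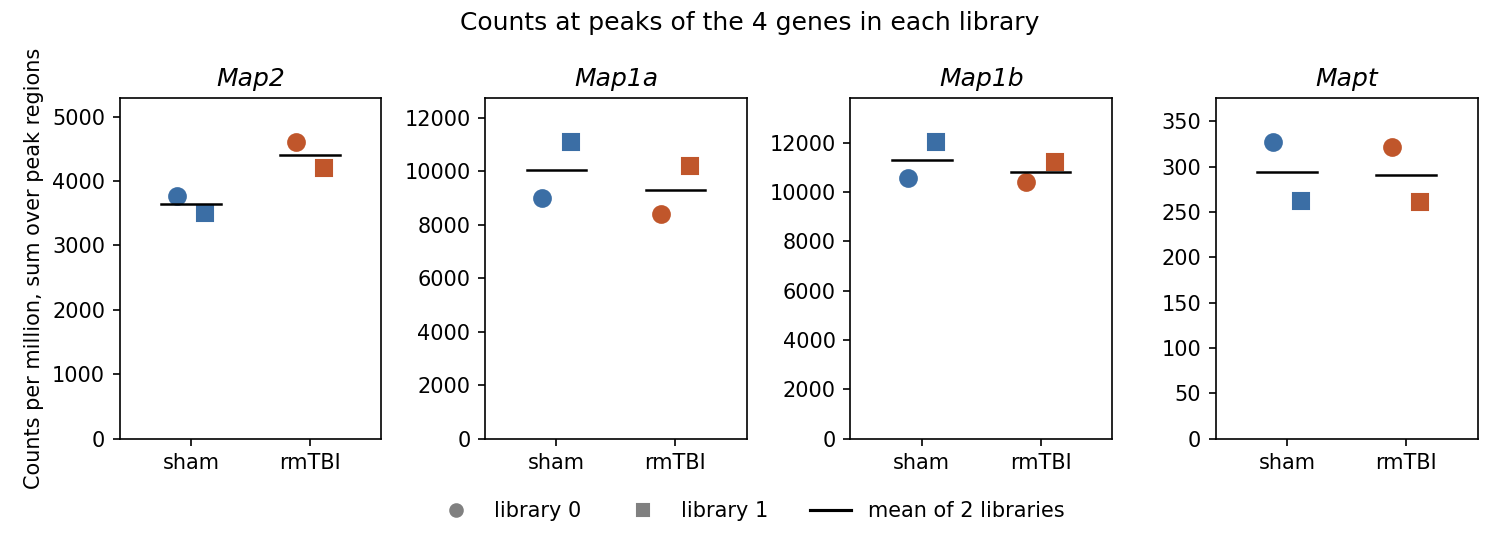
Level of each gene in the 4 libraries, in CPM of the gene sums, with a separate linear axis from 0 for each gene; circles are libraries numbered 0, squares those numbered 1, and lines the mean of 2 libraries. Map2 lies between 3495 and 3774 CPM in sham and between 4197 and 4598 CPM in rmTBI, while the points of Map1a, Map1b and Mapt overlap between the groups.

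Levels of different genes can be set against each other only per length, and spans that cross introns were left out of that comparison. Map1b region 3 had the highest density of the regions compared, with a mean of 2646 CPM per kilobase of span over the 4 libraries. Map1a region 6 had 1438, Map2 region 8 had 1347 and Map1a region 3 had 1236 CPM per kilobase. Map1b region 8 had 1066, Map1b region 4 had 885, Map1b region 7 had 818 and Map2 region 4 had 789 CPM per kilobase. The 3 untranslated regions of Mapt were far lower than these, at 140 (region 2), 93.0 (region 3) and 70.3 (region 4) CPM per kilobase. Some regions of the other genes were near Mapt region 2. Among these, the 3′ untranslated Map1a region 9 had 145, Map2 region 1 had 149 and Map1a region 8 had 166. Map1a region 10 (29.3) and Map1b region 10 (37.1) lay below all 3 of the Mapt regions. The densest regions of Map1a, Map1b and Map2 thus exceeded the densest of these Mapt regions. No library was labelled as RNA taken before the antibody step, so density was not set against RNA abundance. If the numbers mark different kinds of library, these means mix them.

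At single peaks, 0 of the 52 rows were called between rmTBI and sham in the fit without library number, with 0 also at an unadjusted p under 0.05 and 0 in DESeq2. Of all rows tested, edgeR called 29 of 33415 (0.0868%). Both rmTBI libraries lay above both sham libraries at 1 member row, against 12.3% of all rows tested, and below them at 3 member rows, against 12.3% of all rows tested. The smallest unadjusted p of the edgeR fit at these rows was 0.184, at Map2 region 8. The higher row was Map2 region 8, and the 3 lower rows lay in Mapt region 4, Map1a region 5 and Map1b region 2. The next paragraphs go through the regions gene by gene, with CPM in the order sham 0, sham 1, rmTBI 0 and rmTBI 1.

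In Map2, 8 of the 9 regions were higher by the fit, and the same number were higher in rmTBI within both library numbers. Rows higher within both numbers made up 32.0% of all rows tested, and the regions of Map2 are parts of 1 transcript population and are not independent. The median log2 difference over its regions was 0.28. Region 8, in the 3′ untranslated sequence at chr1:66440635-66440905, had 351, 302, 429 and 379 CPM, so that both rmTBI libraries exceeded both sham libraries. Its log2 difference was 0.31 (SE 0.21), or 0.29 and 0.33 within numbers 0 and 1. It ran from 0.20 to 0.41 when each library was left out.

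The 5 coding regions of Map2 lie within chr1:66412419-66416541. Region 3 (chr1:66412419-66412839) had 196, 286, 255 and 353 CPM and a log2 difference of 0.33 (SE 0.28). Region 4 (chr1:66413348-66413648) had 248, 179, 304 and 219 CPM and a difference of 0.29 (SE 0.27). Region 6 (chr1:66414636-66415206) had 287, 377, 352 and 455 CPM and a difference of 0.28 (SE 0.24). Regions 3 and 6 were higher in library 1 and region 4 was higher in library 0. Region 7 (chr1:66415894-66416541) had 283, 223, 357 and 264 CPM and a difference of 0.29 (SE 0.25). The small region 5 (chr1:66414276-66414367) had 19.3, 14.8, 21.8 and 18.1 CPM and a difference of 0.23. In each of the 5 the groups overlapped, and the library numbers lay further apart than the groups. Leaving out 1 library kept the sign in each of the 5 but moved the size, over 0.07 to 0.64 for region 3, 0.02 to 0.54 for region 4, 0.05 to 0.42 for region 5, 0.08 to 0.49 for region 6 and 0.05 to 0.50 for region 7.

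The 5′ side of Map2 held the region that was not higher. Region 1 (chr1:66321965-66322146) had 35.4, 20.6, 31.5 and 21.0 CPM and a log2 difference of -0.09. Region 2 ran over 64694 bases of genome, chr1:66322295-66386988, which crosses introns, and had 831, 602, 1007 and 688 CPM with a difference of 0.24 (SE 0.26). Leaving out a library moved that difference between -0.07 and 0.49. Its span also covered a minus-strand peak row of Gm10558 and region 9, a minus-strand region that the table assigns to Map2 (chr1:66322364-66322602). Region 9 consisted of 2 rows of unequal span with the same 1567, 2305, 1530 and 2625 counts in the 4 libraries, or 112, 84.3, 116 and 94.4 CPM. The sources used here do not say whether the counting used strand, so reads of the opposite strands cannot be told apart there. Without the minus-strand rows, an alternative added after the data were seen, the difference for Map2 was 0.28.

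**Figure D2:**
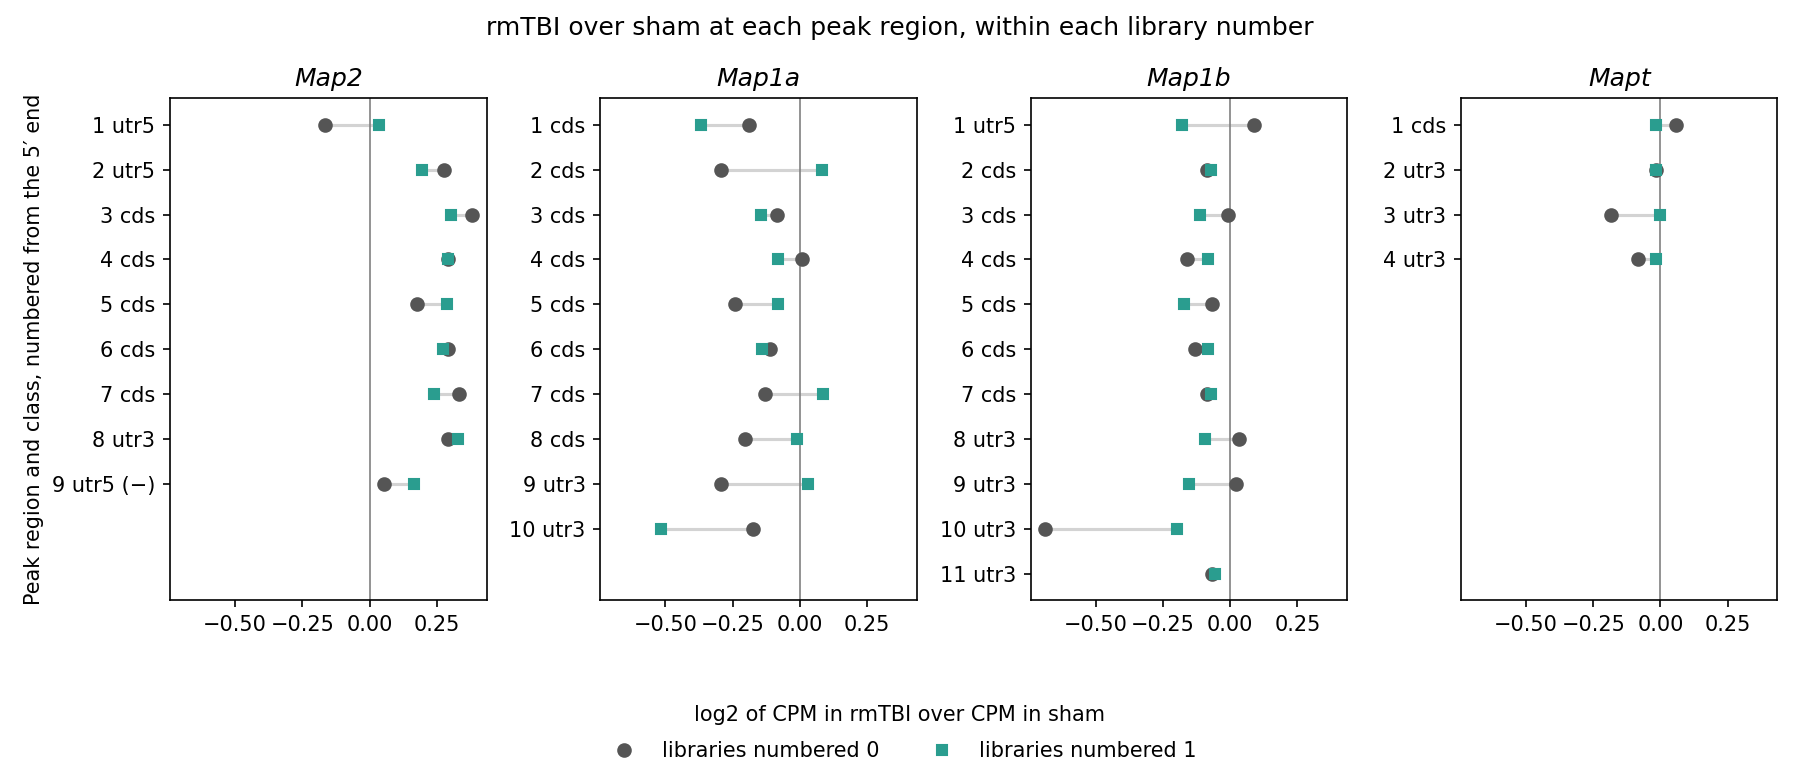
Log2 ratio of CPM in rmTBI to CPM in sham at each of the 34 regions, by gene, with circles for the libraries numbered 0, squares for those numbered 1 and a line joining them; (−) marks the minus-strand region of Map2. At Map2 both points lie above 0 in 8 of 9 regions, and both lie below 0 in 6 of 10 regions of Map1a and 8 of 11 of Map1b.

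In Map1a, all 10 regions were lower by the fit, with a median log2 difference of -0.12, and 6 of 10 were lower within both library numbers (28.5% of all rows tested were). As in Map2, the regions of Map1a are not independent. Most of the signal was in 2 long coding regions. Region 3 (chr2:121299957-121301874) had 2107, 2826, 1989 and 2559 CPM and a difference of -0.12 (SE 0.22). Region 6 (chr2:121303249-121305256) had 2855, 3173, 2644 and 2876 CPM and a difference of -0.13 (SE 0.17). In both, the groups overlapped and the differences were smaller than their standard errors. Without 1 library or another, region 6 ran from -0.21 to -0.05. Together these regions held most of the counts of the gene, with region 3 at 37.3%, 42.7%, 37.9% and 42.3% and region 6 at 50.6%, 47.9%, 50.4% and 47.6% in the 4 libraries.

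The 3′ end of Map1a carried little signal. Region 9 (chr2:121308945-121309455) had 77.4, 76.7, 63.1 and 78.2 CPM with a log2 difference of -0.12. Region 10 (chr2:121309514-121309725) had 7.70, 6.07, 6.82 and 4.25 CPM with a difference of -0.33 (SE 0.33), which ran from -0.70 to -0.01 when each library was left out. Region 5 (chr2:121302441-121302831) had 209, 175, 177 and 165 CPM and a difference of -0.17 (SE 0.22), with a range of -0.29 to -0.04 when each library was left out. The other coding regions had small differences: -0.13 for region 2, -0.03 for region 4, -0.02 for region 7 and -0.10 for region 8. Region 1 (chr2:121290775-121295498) had 20.3, 13.6, 17.8 and 10.5 CPM and a difference of -0.26 (SE 0.34). It overlaps the span of Trp53bp1 on the opposite strand, so the gene behind its reads is uncertain.

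In Map1b, all 11 regions were lower by the fit, and 8 of 11 were lower within both library numbers (28.5% of all rows tested were). These regions too are not independent. The differences were small, with a median of -0.08. Region 3, a coding stretch at chr13:99433063-99434860, had 4543, 5182, 4518 and 4790 CPM and a log2 difference of -0.06 (SE 0.16). It alone held 68.7%, 72.2%, 69.3% and 71.8% of the gene's counts. Region 8, in the 3′ untranslated sequence at chr13:99425234-99425953, had 757, 794, 773 and 745 CPM, or 11.4%, 11.1%, 11.9% and 11.2% of the counts, and a difference of -0.03. Thus a single coding stretch and 1 untranslated region accounted for most of the Map1b signal in every library, with nearly the same split in sham and rmTBI.

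The remaining Map1b regions were weaker. The 5′ untranslated region 1, whose motif is printed above, had 21.7, 25.1, 23.0 and 22.1 CPM and a log2 difference of -0.05. Region 4 (chr13:99432075-99432226) had 176, 105, 157 and 99.4 CPM and a difference of -0.13. Region 7 (chr13:99429472-99429892) had 329, 378, 310 and 360 CPM and a difference of -0.08. In regions 4 and 7 the library number separated the values and the group did not. Region 10 (chr13:99422451-99422631) had the widest Map1b difference, -0.49 (SE 0.37), from 10.3, 5.45, 6.37 and 4.75 CPM. That value rests on few counts, and without 1 library or another it ran from -0.89 to 0.01. The other 5 regions were between -0.05 (region 9) and -0.11 (regions 5 and 6), with -0.08 at region 2 and -0.06 at region 11.

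Mapt had its signal at the 3′ end. Region 2 (chr11:104328017-104328737) had 116, 87.0, 115 and 85.9 CPM and a log2 difference of -0.02 (SE 0.27). Region 4 (chr11:104329963-104330653) had 51.3, 47.6, 48.4 and 47.0 CPM and a difference of -0.05 (SE 0.24). Region 3 (chr11:104329814-104329874) had 6.63, 5.12, 5.84 and 5.11 CPM and a difference of -0.10. Sham and rmTBI libraries of the same number were close to each other at regions 2 and 4. The coding region 1 (chr11:104306664-104310270) had 426, 457, 417 and 459 counts, or 30.4, 16.7, 31.6 and 16.5 CPM. Its difference was 0.03 (SE 0.40), or 0.06 and -0.02 within numbers 0 and 1, so these libraries do not fix a direction for it. The difference ran from -0.52 to 0.51 when a library was left out, which mixes group and number. Region 2 held 56.8%, 55.6%, 57.3% and 55.6% of the tau counts.

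The libraries of a group also differed from each other. In a fit with group and number together, 27 of the 34 regions were called between libraries 1 and 0, 8 of them higher and 19 lower in library 1. By rows, 12 were called higher (17.1% of all rows tested were) and 27 lower (21.1%). That fit has 1 residual degree of freedom before spread is shared between peaks. The group calls above came from a fit without the number and cannot be set against these number calls. Group calls with the number as a block are given in the last section. A fit with the number alone called 11 member rows in place of 39, and over all rows tested it called 5485 in place of 12736. The number of libraries per combination is 1, so the fit with group and number assumes that number acts alike in sham and rmTBI. The direction was the same in both groups at 30 of the 34 regions. That share was not computed over all rows, where deviations by number in sham and rmTBI correlated with r = 0.38.

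Within Map2 the direction changed from one coding region to the next. Region 3 had a log2 ratio of library 1 to library 0 of 0.55 in sham and 0.47 in rmTBI (fitted 0.51, adjusted p = 1.19e-27 by edgeR). Region 6 had 0.39 and 0.37 (fitted 0.38, adjusted p = 2.37e-18). Between and beside them, region 4 had -0.47 in both groups (fitted -0.47, adjusted p = 7.74e-23). Region 5 had -0.38 and -0.27, and region 7 had -0.34 and -0.44. So coding peaks of 1 transcript, within a few kilobases of each other, moved in opposite directions between the libraries, and did so in sham and rmTBI alike.

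Shares of the gene's counts show the same without any scaling between libraries. Map2 region 3 held 8.28% in sham 0, 13.7% in sham 1, 8.87% in rmTBI 0 and 14.2% in rmTBI 1. Region 6 held 12.2%, 18.0%, 12.3% and 18.3%. The 5′ region 2 went the other way, with 35.2%, 28.8%, 35.0% and 27.6%, and the 3′ untranslated region 8 was nearly level, with 14.8%, 14.4%, 14.9% and 15.2%. Within a number, sham and rmTBI libraries divided the Map2 counts almost equally among its regions. The rmTBI libraries therefore had more Map2 counts with nearly the same distribution along the gene.

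**Figure D3:**
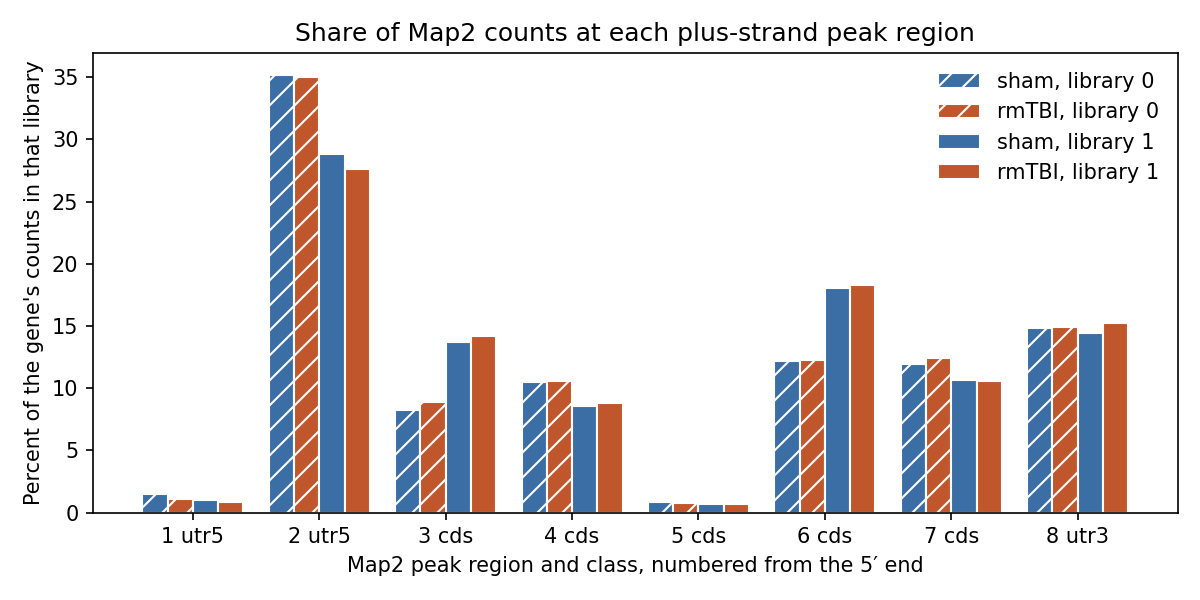
Share of the Map2 counts, in percent, held by each of its 8 plus-strand regions, from the 5′ end to the 3′ end, with 1 bar per library (hatched for number 0, plain for number 1). Regions 3 and 6 take 13.7% to 18.3% in the libraries numbered 1 and 8.28% to 12.3% in those numbered 0, with sham and rmTBI of the same number close together.

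The other genes held such contrasts too. Map1a region 3 had log2 ratios of 0.42 and 0.36 in sham and rmTBI (fitted 0.39, adjusted p = 1.39e-44 by edgeR), and region 6 had 0.15 and 0.12. Map1b region 3 had 0.19 and 0.08 (fitted 0.14, adjusted p = 4.82e-08), while region 4, less than 1 kilobase downstream, had -0.74 and -0.66 (fitted -0.70, adjusted p = 2.50e-35). In Mapt, the coding region 1 had -0.86 and -0.94 (fitted -0.90, adjusted p = 1.35e-14), and the untranslated region 2 had -0.42 in both groups. Mapt region 4 had -0.11 and -0.04 and was not called (adjusted p = 0.519). Regions called higher in library 1 numbered 3 of 10 in Map1a, 3 of 11 in Map1b, 2 of 9 in Map2 and 0 of 4 in Mapt. Those called lower numbered 5, 5, 7 and 2 in the same order. Of all rows tested, 17.1% were called higher and 21.1% lower.

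**Figure D4:**
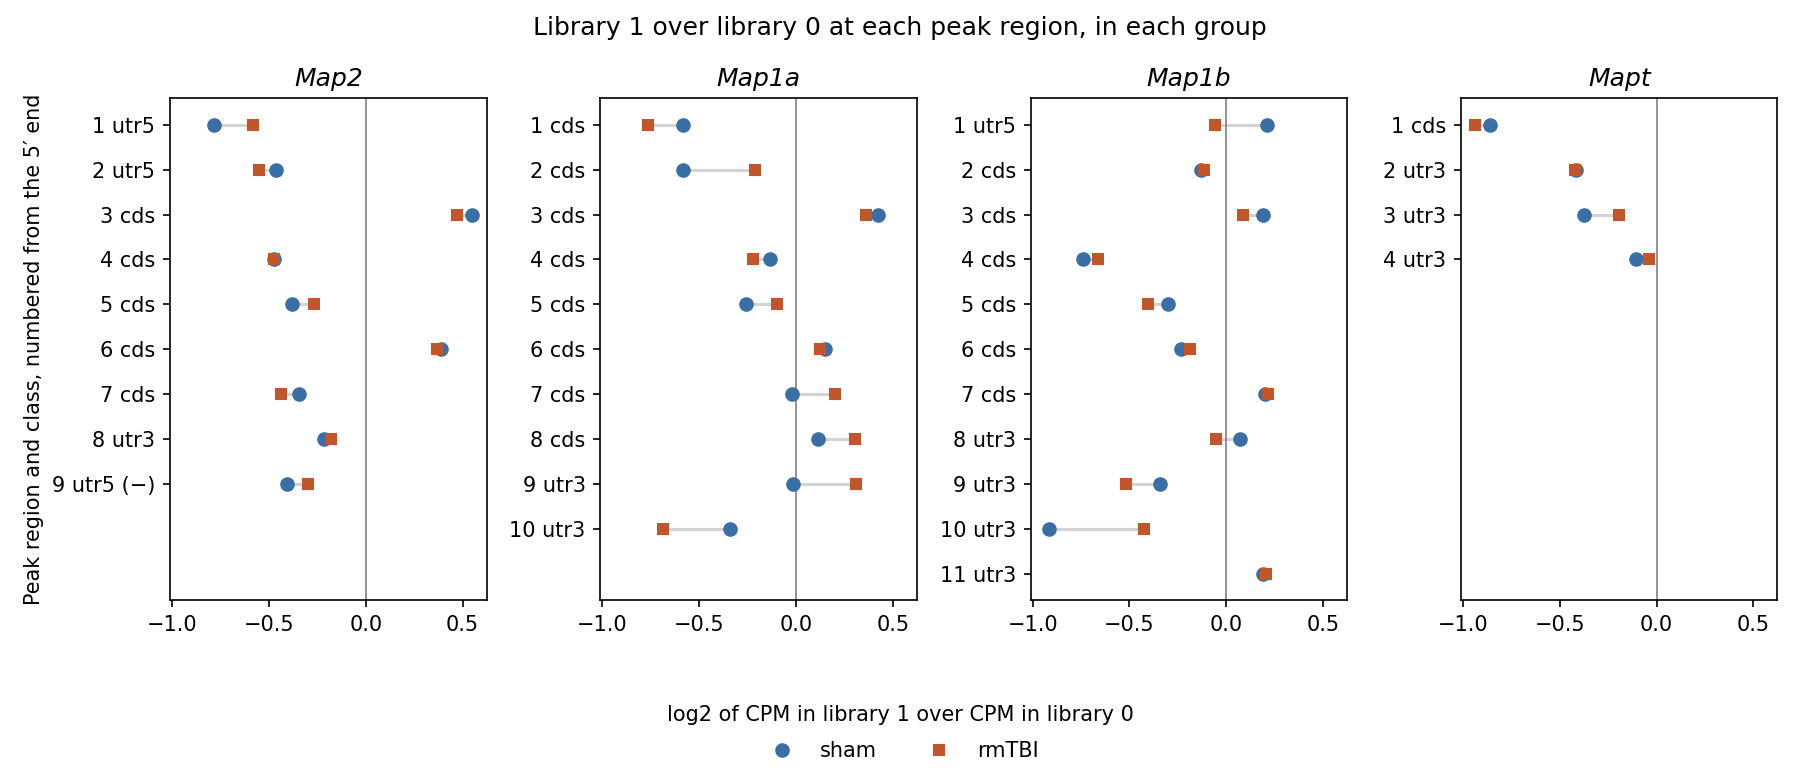
Log2 ratio of CPM in library 1 to CPM in library 0 at each of the 34 regions, by gene, with circles for sham, squares for rmTBI and a line joining them; (−) marks the minus-strand region of Map2. Map2 regions 3 and 6 lie at 0.37 to 0.55 and Map2 region 4 at -0.47 in both groups, and the sham and rmTBI points share their sign at 30 of 34 regions.

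The authors' deposited table gave each peak a log2 value, a p-value and an adjusted p. At the 52 member rows the deposited log2 ran from -0.30 to 0.58, p from 0.256 to 0.991, and the adjusted p was 0.998 for every row. None of the 52 was in the authors' deposited lists of 277 higher and 146 lower peaks. At every member row the deposited log2 differed by the same 0.0442 from the log2 ratio of library 1 to library 0 in rmTBI minus that ratio in sham. The deposited value therefore follows a ratio of ratios and is not the difference of rmTBI from sham reported above. With 1 library for each number and group, that ratio of ratios has no replicate. Such a ratio is the form used where 1 library of each group is RNA before the antibody step, and the labels do not settle whether that holds here.

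The table lists a sham set and an rmTBI set of peaks, and 30 of the member rows were in the sham set and 22 in the rmTBI set. Of the 52 rows, 33 overlapped a row of the other set by at least 1 base and 30 by 50% of both spans. A further 13 rows were in the sham set alone and 6 in the rmTBI set alone. The whole table also lists more sham rows than rmTBI rows. Shares of all rows with and without an overlap were not computed, so these counts are not read as a result about the members. Mapt region 1 was in the sham set alone, although its counts were 417 and 459 in the rmTBI libraries. Peak numbers ran to 28022 for 17943 listed sham rows and to 28375 for 16034 listed rmTBI rows, so numbers are skipped. Between the listed Map2 rows of the rmTBI set 3 numbers were skipped, and 2 sham rows without an overlap lay there. A row in a single set was thus read as a listing and not as absence of signal in the other group.

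Other genes of the microtubule system were counted by the gene fit, from lists chosen with earlier results of these data known. Of the structural microtubule-associated proteins and doublecortin family, 22 of 26 had a peak, 12 were higher and 10 lower, none was called, and the median log2 difference was 0.02. The same median over all genes tested was 0.01, with 5347 higher and 4867 lower. Map4, a widely expressed microtubule stabiliser, had 532, 554, 396 and 406 CPM in the same order as above and a log2 difference of -0.44 (SE 0.16). Both of its rmTBI libraries lay below both sham libraries, as in 12.8% of all genes. Map4 was not called over all genes (unadjusted p = 0.0321 in edgeR). An unadjusted p under 0.05 was reached by 364 of 10214 genes in that fit. Camsap3, which protects microtubule minus ends, had -0.51 (SE 0.34), and Clasp2, which acts at plus ends, had -0.32 (SE 0.26). Map1s, Map1lc3a and Dcx had no peak row. Stop, an older symbol of Map6, had no row under that symbol, so the list of 26 holds that gene under both symbols. Map6 itself had a peak, with 438, 357, 438 and 371 CPM and a log2 difference of 0.02.

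Of the destabilising and severing proteins, 9 of 10 had a peak, 5 were higher and 4 lower, none was called, and the median was 0.07. Fign, a microtubule-severing enzyme, had 10.9, 12.2, 3.52 and 6.24 CPM, with both rmTBI libraries below both sham libraries (12.8% of all genes were). Its log2 difference was -1.21 (SE 0.36, adjusted p = 0.782 by edgeR). The tubulin-sequestering stathmins Stmn4 and Stmn1 had -0.35 (SE 0.19) and 0.25 (SE 0.16). Of the tubulins, 10 of 12 had a peak, 4 were higher and 6 lower, none was called, and the median was -0.02. Tubb4a had -0.21 (SE 0.18), the neuronal Tubb3 -0.16 (SE 0.24) and Tubb2a 0.10 (SE 0.16). The tubulin differences were thus of the order of their errors.

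Of the tau kinases, phosphatases and binding partners, 31 of 35 had a peak, 18 were higher and 13 lower, none was called, and the median was 0.04. Camk2a, a synaptic kinase that can phosphorylate tau and MAP2, had the smallest p of the list, with a log2 difference of 0.39 (SE 0.17, unadjusted p = 0.0546 in edgeR). Ppp2r2a and Ppp2ca, subunits of the phosphatase that dephosphorylates tau, had -0.27 (SE 0.22) and -0.21 (SE 0.18). Gsk3a, Ppp2r1a, Prkaca and Oga had no peak row.

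Genes with a pattern like each member were sought by the root mean square difference of centred log2 CPM over the 4 libraries, among genes of similar level. For Mapt, of 1183 genes compared, Mapk8ip3 (0.0088), Kif16b (0.0091) and Top2b (0.0125) were nearest. For Map2, of 32 compared, Smarca2 (0.0585), Cplx2 (0.0876) and Ank2 (0.0951) were nearest, and their log2 differences of rmTBI over sham were 0.21, 0.20 and 0.13. For Map1a, of 10 compared, Sparcl1 (0.0711), Map1b (0.0776) and Gm37376 (0.0986) were nearest. For Map1b, of 6 compared, Gm37376 (0.0305), Map1a (0.0776) and mt-Nd5 (0.0793) were nearest. With 4 libraries and, for the MAP1 genes, few candidates of similar level, these are descriptions of likeness alone.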

How the data were processed

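The deposited table holds whole-number counts per peak and library, with a log2 value, a p-value and an adjusted p per peak that the authors deposited. STAR, DESeq2 and GRCm39 are named in the submitters' processing notes, without roles or versions. The sources used here do not name the peak caller or counter, nor whether strand was used. The authors' separate list of differential peaks was not used for tests. The members and gene lists were chosen with earlier results of these data known. Named genes were the members and, from each list, the called genes or otherwise the 3 with the smallest p.

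Counts were tested in edgeR 4.0.16 (R 4.3.3) by quasi-likelihood, with TMM scaling, filterByExpr and Benjamini-Hochberg adjustment over all peaks or genes at 0.05. A gene's count is the sum over the longest row of each of its regions. The standard error is the log2 difference divided by the square root of F. Alternatives were DESeq2 1.42.0, other scalings and filters, the library number as a block, and each library left out. Totals ran from 13753600 to 26888072 counts. RefSeq GRCm38.p6 gave spans and promoter sequence, and no genome was used here.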

Additional observations from a re-analysis of the deposited data

Results flagged for a closer look

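At 4 of the 34 regions the log2 ratio of library 1 to library 0 had opposite signs in sham and rmTBI. Map1a region 7 had -0.0197 in sham and 0.1993 in rmTBI. Map1a region 9 had -0.013 in sham and 0.3093 in rmTBI. Map1b region 1, the 5′ untranslated peak, had 0.2091 in sham and -0.0588 in rmTBI. Map1b region 8, the main 3′ untranslated peak, had 0.0704 in sham and -0.053 in rmTBI. The difference was not tested, since each number has 1 library per group.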

How the results depend on the processing

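With 2 libraries per group, calls over all features varied with the processing, and the cause was not tested. Peaks called between rmTBI and sham numbered 29, against 2 with library-size scaling, 131 in DESeq2, 0 with at least 10 counts in every library (855 at an unadjusted p under 0.05 in edgeR), 3553 with the replicate block and 82 to 122 without 1 library. Genes called numbered 13, against 2, 68, 7, 1470 and 34 to 57 in the same order, and 7 with all rows summed. The number fit called 12736 peaks, 6931 in DESeq2, 5485 with the number alone and 1575 to 2748 without 1 library. Of the member rows it called 39, against 11 with the number alone and 3 to 5 without 1 library. Library-size scaling moved the median of all peaks in that fit from 0.04 to 0.14, and gave Mapt region 4 a value of 0.0275. Map1b region 8 in that fit was -0.0092 with DESeq2 size factors and -0.0121 in DESeq2. The library numbers are shared by the groups, but nothing in the labels pairs the samples, and deviations by number correlated across 33977 peaks with r = 0.38. With the replicate block, 13 member rows were called in place of 0: 7 of 11 higher in Map2 (5.42% of all rows were) and 6 of 17 lower in Map1a (5.22% of all rows were). With it 3 member genes were called in edgeR: Map2 (0.27, adjusted p = 1.11e-26), Map1a (-0.11, adjusted p = 1.47e-06) and Map1b (-0.06, adjusted p = 0.0335). Over all genes, 1470 of 10214 were called with the block. That fit has 1 residual degree of freedom before spread is shared between genes. The median log2 difference of the microtubule lists ran, without 1 library, from -0.10 to 0.09 (structural proteins), -0.45 to 0.32 (destabilisers), -0.10 to 0.08 (tubulins) and -0.02 to 0.04 (tau kinases and partners).

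Without 1 library, the rmTBI over sham value changed sign in these ranges. For gene sums they were -0.1962 to 0.1503 (Mapt), -0.2601 to 0.0432 (Map1a) and -0.1526 to 0.0368 (Map1b). For Mapt regions 1 to 3 they were -0.5166 to 0.5106, -0.2524 to 0.196 and -0.2806 to 0.079. For Map1a they were -0.6955 to 0.0772 (region 1), -0.3955 to 0.1771 (region 2), -0.3267 to 0.1111 (region 3), -0.162 to 0.0729 (region 4), -0.1223 to 0.0644 (region 7), -0.2626 to 0.0314 (region 8) and -0.2869 to 0.0098 (region 9). For Map1b they were -0.1618 to 0.0601 (region 1), -0.1673 to 0.036 (region 3), -0.5108 to 0.2751 (region 4), -0.3419 to 0.0757 (region 5), -0.221 to 0.0029 (region 6), -0.1914 to 0.0263 (region 7), -0.0767 to 0.0064 (region 8), -0.3462 to 0.1845 (region 9), -0.8948 to 0.0062 (region 10) and -0.1677 to 0.0371 (region 11). For Map2 they were -0.4303 to 0.3415 (region 1), -0.07 to 0.4904 (region 2) and -0.086 to 0.3084 (region 9). Ranges that kept their sign included -0.15 to -0.0242 for Map1b region 2 and -0.1031 to -0.0097 for Mapt region 4. In the number fit, Map1b regions 1 and 8 ranged from -0.0137 to 0.1659 and from -0.036 to 0.0562. The lone library left in a group was assumed to vary like the other group. Each such fit also left 1 group with a single library number, so these ranges mix group and number.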
